A study of Mus musculus with 536 samples.

Results

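Fas, Tnfrsf10b, Bbc3, Pmaip1 and Perp are genes through which the transcription factor p53 can commit a damaged cell to death. They were taken by name from a table of 12393 genes measured in mouse blood, and all 5 were present. Where a gene had several probe sets, the brightest on average was read. Levels are log2 signals throughout, so a difference of 1 is a 2-fold change of signal.

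Peripheral blood of C57BL/6 mice, 10 to 12 weeks old, had been drawn by cardiac puncture after 1 total body dose from a Cs137 source at 480 cGy/min, or after none (0 cGy). In a dose-time set, 240 mice in groups of 5 received 1 of 7 doses (100, 200, 300, 450, 600, then 800 and finally 1050 cGy), or 0 cGy, and were sampled at 6, 24, 48, 72, 120 or 168 hr. In a sex and treatment set, 111 female and 115 male mice in groups of 3 to 5 received 200, 300 or 600 cGy, or 0 cGy, with GCSF (granulocyte colony-stimulating factor, which makes the marrow release neutrophils), LPS (lipopolysaccharide of the bacterial envelope, which provokes an inflammatory response) or neither, and were sampled at 6 or 24 hr. A small treatment set of 50 mice (groups of 5 to 6, GCSF, LPS or no agent, 150, 600 or 0 cGy, 6 hr) and a small 7 day set of 18 mice (10 at 150 cGy and 3 at 0 cGy at 168 hr, with 3 at 0 cGy at 6 hr and 2 at 24 hr) completed the series. No genetic change is labelled for any mouse. Sex is known for the sex and treatment set alone, and the time of giving the agents is not stated. Nothing ties the mice of a group to separate litters or cages.

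The p53 protein builds up after DNA damage and switches on genes for arrest, repair and death. Death can start at the cell surface, where Fas and Tnfrsf10b are receptors for the ligands Fas ligand and TRAIL and activate caspase-8. It can also start at the mitochondrion, where the BH3-only proteins Bbc3 (PUMA) and Pmaip1 (Noxa) bind the protective members of the BCL2 family. Perp is a membrane protein that p53 induces and that also helps build desmosomes in epithelia. Blood lymphocytes are among the cells most sensitive to radiation, whereas mature neutrophils are comparatively resistant.

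The blood itself changed with dose. At 6 hr in the dose-time set, the mean level of 9 B cell markers was 6.22 at 600 cGy, against 9.33 at 0 cGy. That of 10 T cell markers was 7.08 at 600 cGy, against 8.68 at 0 cGy, and that of 8 mature neutrophil markers was 10.98 at 600 cGy, against 8.60 at 0 cGy. In whole blood, fewer cells of a type and less RNA per cell cannot be told apart. Liver transcripts were a further variable, since Alb (albumin, made by hepatocytes) reached 10 or more in 116 of 240 mice of the dose-time set, at 6 hr in 1 of 40. At 120 and 168 hr every mouse given 450 cGy or more was at or above that level. In the sex and treatment set, 1 of 111 mice labelled female had levels of the sex-linked genes Xist and Eif2s3y within the male range. In the small treatment set, 1 of the 6 mice at 0 cGy without agent stood apart, with a B cell mean of 6.63 against 9.03 to 9.64 in the other 5. Perp and Tnfrsf10b were dim, at the 8.7 and 29.8 percentile of the mean levels of all genes, while Pmaip1, Fas and Bbc3 lay at the 62.7, 63.0 and 69.7 percentile.

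In the dose-time set no member rose at every dose and time. Bbc3 and Fas rose up to 72 hr, and Pmaip1 rose at 6 and 48 hr and fell from 120 hr on. Tnfrsf10b rose at 6 hr, a rise not called without agent in the sex and treatment set or the small treatment set. Perp rose with dose at 120 and 168 hr. In the dose-time set the dose trend (a straight line through the 8 groups against dose, in log2 signal per 100 cGy) passed an adjusted p of 0.05 for 3 of the 5 genes at 6 hr, where 34.7% of all genes passed, and for 0 of 5 at 24 hr (38.7%), with limma also giving 0 of 5 at an unadjusted p under 0.05. It passed for 2 genes at 48 hr (47.3%), 2 at 72 hr (53.4%), 5 at 120 hr (82.4%) and 4 at 168 hr (82.2%). All calls up to 72 hr were rises. At 120 hr, Tnfrsf10b and Pmaip1 fell with dose and the other 3 genes rose, and at 168 hr the same 2 fell while Fas and Perp rose. The trend differed between times for all 5 genes by a moderated F test, with adjusted p of 7.18e-15 (Perp) to 3.38e-10 (Tnfrsf10b), as it did for 92.3% of all genes.

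**Figure D1:**
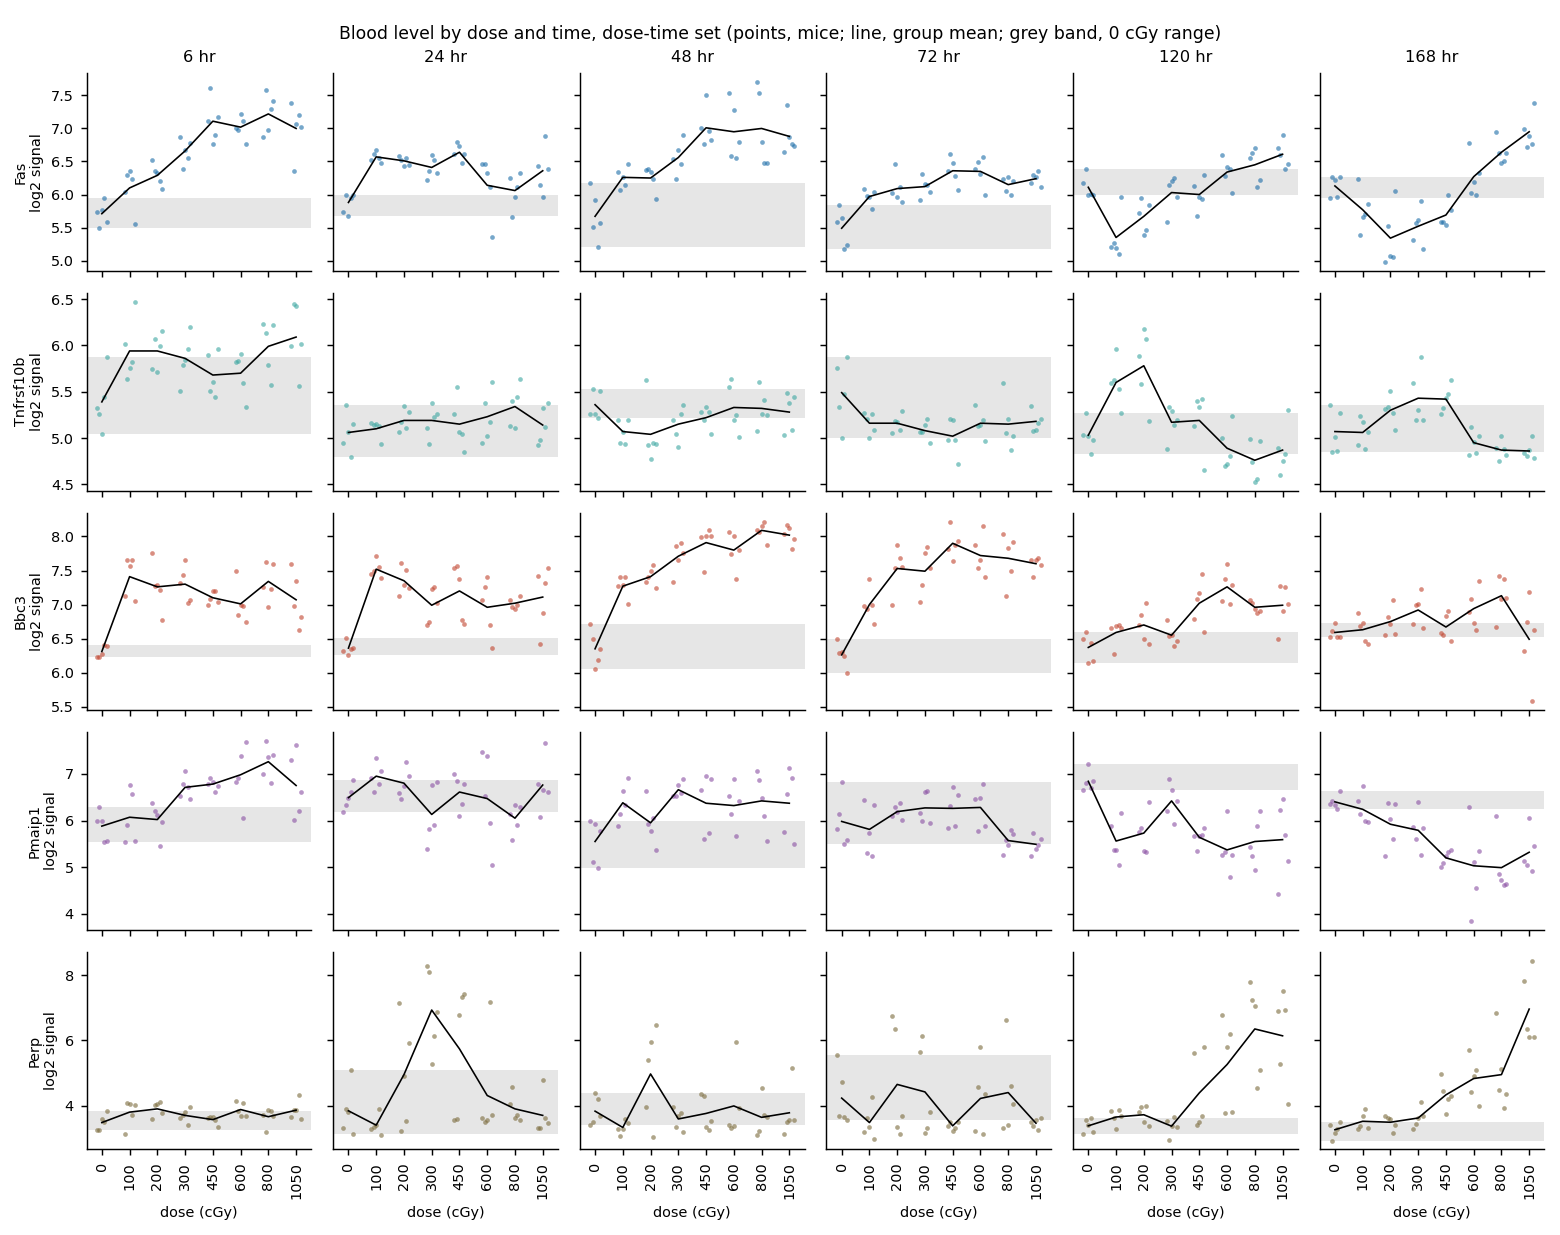
Log2 signal of the 5 genes (down the page) at 6 to 168 hr (across) against dose in cGy in the dose-time set. Each point is a mouse, the line joins the group means and the grey band spans the 5 mice at 0 cGy. Bbc3 lies above the band in all 35 irradiated mice at 6, 48 and 72 hr, and Pmaip1 lies below it in 33 of 35 at 120 hr.

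Single doses were also set against 0 cGy. Over the 7 doses and 5 genes, 23 of 35 differences from 0 cGy passed at 6 hr (42.2% over all genes and doses), 14 at 24 hr (22.9%) and 20 at 48 hr (43.8%), all of them rises. At 72 hr 18 of 35 passed (14 rises, 4 falls, against 43.7%), at 120 hr 18 of 35 (10 rises, 8 falls, against 53.4%) and at 168 hr 15 of 35 (8 rises, 7 falls, against 52.9%). The doses of a time share their 0 cGy mice, so these counts are not independent of each other. The shares of member tests at 24 hr (14 of 35) and 6 hr (23 of 35) were above those of all genes, and those at 120 and 168 hr were close to or below them.

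Fas encodes the receptor for Fas ligand. Its RefSeq promoter (GRCm38.p6, chr19:34290409-34290708, plus strand, 250 bases before to 50 after the start) is shown with that of Bbc3, the 2 members of the 5 that matched the RefSeq promoter table.
Fas: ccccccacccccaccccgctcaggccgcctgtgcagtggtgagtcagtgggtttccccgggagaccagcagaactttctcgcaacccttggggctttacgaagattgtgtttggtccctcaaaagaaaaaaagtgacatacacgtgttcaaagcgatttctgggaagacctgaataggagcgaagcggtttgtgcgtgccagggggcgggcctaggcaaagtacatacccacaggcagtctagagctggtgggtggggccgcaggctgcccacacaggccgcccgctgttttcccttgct
Letters typical of p53 response elements were searched as pairs of 4-letter cores with 6 bases between them, a core starting with C, ending with G and holding A or T at both middle places, so that the set reads the same on both strands. The Fas window held no such pair, nor a match to the full p53 half-site, which occur in 7.2% and 8.4% of 32851 promoters of that length. It held 2 GC boxes (GGGCGG or CCGCCC), which are found in 35.7% of promoters. A match is a run of letters, not a site shown to be bound, and no match speaks only of this window.

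Fas rose with dose at 6 hr. Its levels were 7.11, 7.62, 6.77, 6.90 and 7.17 at 450 cGy and 6.87, 7.58, 6.97, 7.29 and 7.41 at 800 cGy, against 5.73, 5.49, 5.77, 5.95 and 5.58 at 0 cGy. Both irradiated groups lay wholly above the controls, and 34 of 35 irradiated mice of that time did so. Against 0 cGy, 200 cGy gave 0.59 ± 0.17 (SE, adjusted p = 0.00321), 450 cGy gave 1.41 ± 0.17 (3.05e-12) and 800 cGy gave 1.52 ± 0.17 (7.36e-14). The slope was 0.128 ± 0.013 per 100 cGy (adjusted p = 7.05e-18). Read within each of the 5 runs that a code in the titles seems to mark, each holding 1 mouse of every group, it was 0.104 to 0.162.

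At 24 hr Fas did not follow the order of dose. Fas was higher than at 0 cGy at 100, 200, 300, 450 and 1050 cGy, by 0.49 to 0.77, but its slope was -0.005 ± 0.013 (adjusted p = 0.78). At 100 cGy the 5 mice read 6.53, 6.61, 6.68, 6.55 and 6.48, against 5.74, 6.00, 5.68, 5.95 and 6.00 at 0 cGy. These groups did not overlap. At 600 cGy the mice ranged between 5.35 and 6.46 and overlapped the controls. Each of the 5 calls at 24 hr was lost in at least 1 other fit, those at 100 and 300 cGy without replicate 3 (adjusted p = 0.0548 and 0.0892), those at 200 and 450 cGy without arrays with Alb of 10 or more (0.102 and 0.0923) and that at 1050 cGy without replicate 1 (0.068), 3 (0.0685) or 4 (0.245). The cell markers of that time did not run in the order of dose either. Mice given 600 cGy had a T cell mean of 6.60 and those given 800 cGy one of 8.24, against 8.84 at 0 cGy, and their B cell means were 7.31 and 7.91, against 9.61 at 0 cGy. Without the 800 cGy mice the slope was 0.009 (0.645). The part of these cells in the 24 hr course was not tested. A rise with dose was again present at 48 hr, with a slope of 0.108 ± 0.013 (adjusted p = 3.32e-14), differences of 0.58 to 1.34 and all 7 doses called. Without arrays with Alb of 10 or more the slope still passed (0.156, 2.01e-08), but the differences at 100 cGy (0.36, 0.38) and 200 cGy (0.40, 0.394) did not. It was smaller at 72 hr, with a slope of 0.050 ± 0.013 (2.44e-04) and differences of 0.47 to 0.86, and all 7 doses were called there too.

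At 120 and 168 hr Fas took a V shape over dose. At 168 hr it read 4.98, 5.53, 5.07, 5.06 and 6.05 at 200 cGy and 6.99, 6.72, 6.89, 6.76 and 7.39 at 1050 cGy, against 5.94, 6.27, 6.22, 5.96 and 6.26 at 0 cGy. The 1050 cGy mice all lay above the controls, while 4 of the 5 at 200 cGy lay below them. Fas fell by 0.79 ± 0.17 at 200 cGy (adjusted p = 4.34e-05), by 0.61 at 300 cGy (8.25e-04) and by 0.44 at 450 cGy (0.0178). It rose by 0.51 at 800 cGy (0.00754) and 0.82 at 1050 cGy (1.09e-05). The call at 450 cGy was lost with the hepatocyte list as a covariate (-0.33, 0.0755), without replicate 2 (0.0673) and without replicate 3 (0.0986), and that at 800 cGy after quantile normalisation (0.0956) and without replicate 1 (0.081). At 120 hr it fell by 0.76 at 100 cGy (3.37e-05) and 0.44 at 200 cGy (0.0175) and rose by 0.50 at 1050 cGy (0.0089). Of these the 200 cGy call was lost without replicate 3 (0.0841) or 4 (0.0614), and the 1050 cGy call without replicate 3 (0.0975) and after quantile normalisation (0.133). The positive slopes of 0.092 ± 0.013 at 120 hr (2.17e-11) and 0.120 ± 0.013 at 168 hr (2.61e-17) thus stand for a course that was not a straight line. Without arrays with Alb of 10 or more, which leaves no mouse above 300 cGy at either time, the slopes were 0.000 (adjusted p = 0.994) and -0.265 (1.23e-05). With the hepatocyte list as a covariate the slopes were 0.111 and 0.139.

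Tnfrsf10b encodes the mouse TRAIL receptor. At 6 hr it was higher at 100, 200, 300, 800 and 1050 cGy, by 0.47 to 0.70, but without a clear order over dose. It read 5.99, 6.45, 6.43, 5.56 and 6.01 at 1050 cGy and 6.02, 5.64, 5.76, 5.82 and 6.47 at 100 cGy, against 5.32, 5.26, 5.04, 5.44 and 5.87 at 0 cGy. Both groups overlapped the controls through the control mouse at 5.87. The difference was 0.70 ± 0.14 at 1050 cGy (adjusted p = 1.46e-05) and 0.56 ± 0.14 at 100 cGy (0.00174), and the slope of 0.035 ± 0.011 had an adjusted p of 0.00535. That slope was 0.023 in each of the fits without replicate 2 and without replicate 3, with adjusted p of 0.157 and 0.169, and 0.017 (0.298) with the gene's dimmer probe set, which also lost the calls at 100 cGy (0.33, 0.112) and 800 cGy (0.20, 0.354).

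At later times Tnfrsf10b had both rises and falls. At 72 hr its trend did not pass (-0.014 ± 0.011, adjusted p = 0.253), but did with the dimmer probe set (-0.037, 0.00801). Tnfrsf10b fell at that time at 300, 450, 600 and 800 cGy, by 0.33 to 0.47. After quantile normalisation none of these 4 falls passed (0.091 to 0.362), nor did any without replicate 5 (0.0797 to 0.268). At 120 hr the mice read 5.89, 5.58, 6.18, 6.07 and 5.18 at 200 cGy and 4.99, 4.74, 4.53, 4.56 and 4.97 at 800 cGy, against 5.03, 5.27, 5.02, 4.83 and 4.98 at 0 cGy. The 200 cGy mice lay above the controls in 4 of 5 cases. The rise was 0.75 ± 0.14 at 200 cGy (2.59e-06) and 0.57 ± 0.14 at 100 cGy (1.88e-04), while the 800 cGy difference of -0.27 did not pass. After quantile normalisation the 100 cGy difference did not pass (0.25, 0.134). The fall with dose was -0.066 ± 0.011 per 100 cGy at 120 hr (5.77e-09) and -0.034 ± 0.011 at 168 hr (0.00187). At 168 hr no single dose was called as a fall, and 300 cGy (0.36 ± 0.14, 0.0183) and 450 cGy (0.35 ± 0.14, 0.0231) were called as rises, both lost after quantile normalisation (0.09, 0.626 and 0.08, 0.646) and without replicate 4 (0.292 and 0.121). The dimmer probe set gave falls at that time at 800 cGy (-0.57, 0.00218) and 1050 cGy (-0.57, 0.00197) and a rise at 200 cGy (0.41, 0.0272). With it the 800 cGy fall at 120 hr passed too (-0.48, 0.00993). The 168 hr slope did not pass after quantile normalisation (-0.009, 0.471), with dose on a log2 scale (-0.061, 0.079) or with the hepatocyte covariate (-0.011, 0.437). Without the arrays with Alb of 10 or more the slopes were 0.066 (0.271) and 0.144 (0.0109), over doses up to 300 cGy only. At 24 and 48 hr no dose passed for this gene, although 200 cGy at 48 hr did with the dimmer probe set (-0.42, 0.031).

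Bbc3 encodes PUMA, which binds all protective BCL2 family members. The RefSeq table holds 3 starts for it. The first is shown (GRCm38.p6, chr7:16309333-16309632, plus strand) with the only core pair found in these windows in capitals, from -94 to -81 relative to the start.
Bbc3: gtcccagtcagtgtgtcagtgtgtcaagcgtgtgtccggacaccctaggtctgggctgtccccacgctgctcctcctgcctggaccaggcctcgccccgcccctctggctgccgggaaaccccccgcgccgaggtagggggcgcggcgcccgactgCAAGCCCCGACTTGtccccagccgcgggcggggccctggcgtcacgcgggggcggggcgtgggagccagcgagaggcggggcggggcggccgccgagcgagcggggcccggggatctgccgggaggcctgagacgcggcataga
This window held 5 GC boxes and no full half-site.

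Bbc3 rose at every dose at 6, 24, 48 and 72 hr, and at 6, 48 and 72 hr each of the 35 irradiated mice lay above all 5 controls of its time. At 6 hr the lowest dose gave as large a value as any. Its levels were 7.12, 7.66, 7.56, 7.65 and 7.05 at 100 cGy and 7.60, 6.98, 7.34, 6.63 and 6.81 at 1050 cGy, against 6.23, 6.23, 6.27, 6.41 and 6.39 at 0 cGy. Neither irradiated group overlapped the controls. The difference was 1.10 ± 0.17 at 100 cGy (adjusted p = 2.73e-07) and 0.77 ± 0.17 at 1050 cGy (6.18e-05), and the slope of 0.025 ± 0.012 did not pass (0.0982). With dose on a log2 scale the 6 hr trend passed (0.142, 0.00105), as it did after quantile normalisation (0.035, 0.0268), without arrays with Alb of 10 or more (0.029, 0.0232), with the hepatocyte covariate (0.027, 0.049) and without replicate 4 (0.036, 0.0344). At 24 hr the differences ran from 1.16 ± 0.17 at 100 cGy (1.35e-07) to 0.60 at 600 cGy (0.00311, but 0.0659 without replicate 3), with a slope of 0.010 ± 0.012 (0.514).

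At 48 hr Bbc3 rose with dose. It read 7.27, 7.40, 7.28, 7.40 and 7.01 at 100 cGy and 8.10, 8.06, 8.16, 8.22 and 7.88 at 800 cGy, against 6.71, 6.49, 6.05, 6.18 and 6.34 at 0 cGy. The 3 groups did not overlap. The slope was 0.127 ± 0.012 (1.75e-18), within runs 0.108 to 0.153, and the difference at 800 cGy was 1.73 ± 0.17 (1.74e-18). At 72 hr the slope was 0.095 ± 0.012 (6.53e-12) and the differences were 0.74 to 1.63. By 120 hr only 450 cGy and above passed, by 0.59 to 0.90, with a slope of 0.062 ± 0.012 (2.36e-06). At 168 hr the 800 cGy mice alone differed, by 0.54 ± 0.17 (0.00403), and the slope was 0.010 ± 0.012 (0.434). The 120 hr slope did not pass after quantile normalisation (0.027, 0.0517) or without the arrays with Alb of 10 or more (0.060, 0.269). The 168 hr slope passed with the hepatocyte covariate (0.053, 3.46e-04) and without those arrays (0.103, 0.0446, up to 300 cGy), while the 800 cGy call of that time was lost after quantile normalisation (0.38, 0.0692) and with mouse number as a replicate block (0.38, 0.0736).

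Pmaip1 encodes Noxa, which binds the protective protein MCL1. It rose with dose early and fell late. At 6 hr it read 7.00, 7.70, 7.37, 6.80 and 7.40 at 800 cGy, against 5.98, 6.30, 5.99, 5.54 and 5.57 at 0 cGy. The groups did not overlap, the difference was 1.38 ± 0.30 (9.38e-05) and the slope was 0.111 ± 0.022 (1.63e-05), within runs 0.053 to 0.157. At 100 and 200 cGy the 6 hr differences did not pass. The 6 hr call at 300 cGy was lost without replicate 3 (0.0541) or 4 (0.0647), and that at 1050 cGy without replicate 3 (0.0877). At 24 hr no dose passed, with differences of -0.44 to 0.45. At 48 hr 6 of 7 doses passed, by 0.77 to 1.10, with a slope of 0.046 ± 0.022 (0.0774). That slope passed with dose on a log2 scale (0.193, 0.0112), without arrays with Alb of 10 or more (0.095, 0.0342), without replicate 5 (0.073, 0.0094), with each array centred on its median (0.055, 0.0367) and with the hepatocyte covariate (0.050, 0.0462). Of the 6 dose calls, that at 300 cGy (1.10, 0.00154) alone held in every fit without 1 replicate. Without arrays with Alb of 10 or more the calls at 100 cGy (0.486), 450 cGy (0.13), 600 cGy (0.0571) and 1050 cGy (0.126) were lost.

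From 120 hr on Pmaip1 fell against the controls, at 6 of 7 doses at 120 hr and 4 of 7 at 168 hr. The difference did not pass at 300 cGy at 120 hr (-0.42, 0.244) or at 100, 200 and 300 cGy at 168 hr (-0.16, -0.47 and -0.61). The controls themselves differed between times, at 4.98 to 5.98 at 48 hr, 6.65 to 7.20 at 120 hr and 6.24 to 6.64 at 168 hr. At 120 hr Pmaip1 read 5.89, 5.36, 5.37, 5.05 and 6.16 at 100 cGy and 5.27, 5.32, 6.20, 4.78 and 5.27 at 600 cGy, against 6.65, 6.80, 7.20, 6.70 and 6.84 at 0 cGy. Neither group reached the lowest control, and 33 of 35 irradiated mice lay below all controls. Pmaip1 fell by 1.27 ± 0.30 at 100 cGy (9.05e-05) and by 1.47 ± 0.30 at 600 cGy (1.05e-05). At 168 hr the fall followed dose, at -0.127 ± 0.022 per 100 cGy (7.82e-08, within runs -0.177 to -0.062), and 29 of 35 irradiated mice lay below all controls. The 120 hr slope was -0.081 ± 0.022 (5.20e-04) and did not pass with the hepatocyte covariate (-0.045, 0.125) or without arrays with Alb of 10 or more (-0.112, 0.252). Mature neutrophil markers ran the same way at some doses and times and not at others. At 1050 cGy their mean was 10.98 at 6 hr and 6.23 at 168 hr, against 8.60 and 8.71 at 0 cGy, and of the 8 markers 8 rose with dose at 6 hr and 6 fell at 168 hr. At 450 cGy and 24 hr, where Pmaip1 differed by 0.12 (0.812), their mean was 10.40, against 8.87 at 0 cGy. At 100 cGy and 120 hr, where Pmaip1 fell by 1.27, it was 8.44, against 8.84 at 0 cGy. Their part in the course of Pmaip1 was not tested.

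**Figure D2:**
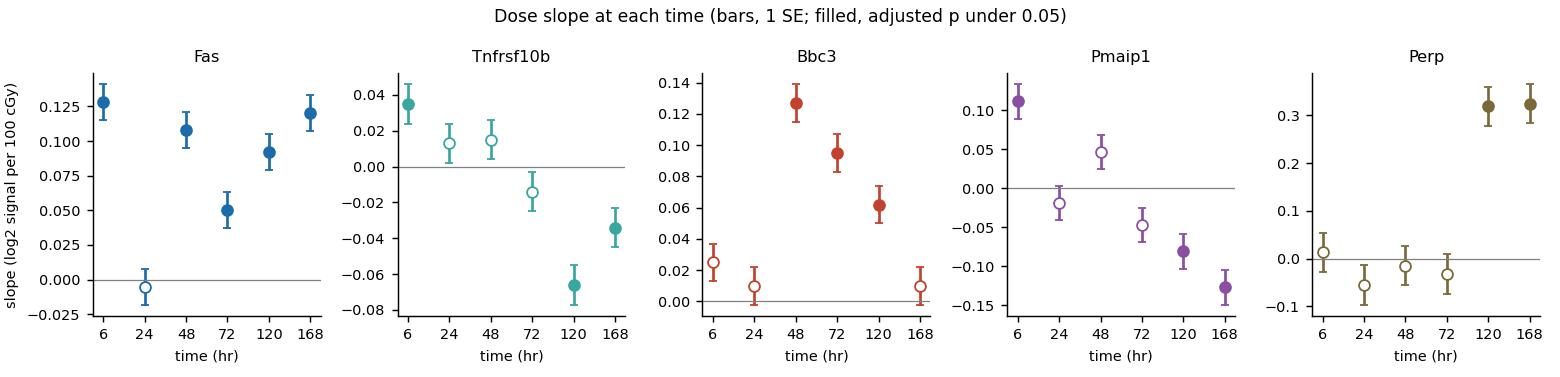
Dose slope of each gene (log2 signal per 100 cGy, vertical) against time in hr (horizontal) in the dose-time set. Points are limma estimates with bars of 1 SE, filled where the adjusted p is under 0.05. Bbc3 has its largest slope at 48 hr (0.127), Pmaip1 has 0.111 at 6 hr and -0.127 at 168 hr, and Perp is called at 120 and 168 hr alone.

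Perp rose at high doses and late times. At 6 hr its 35 irradiated mice lay between 3.14 and 4.32 and no dose passed, although 200, 600 and 1050 cGy did, by 0.38 to 0.42, without arrays with Alb of 10 or more. Its trend passed at 120 hr, with 0.319 ± 0.041 (1.72e-12), and at 168 hr, with 0.324 ± 0.041 (7.90e-13). At 168 hr and 1050 cGy it read 7.82, 6.36, 6.11, 8.44 and 6.09, against 3.40, 2.93, 3.17, 3.27 and 3.50 at 0 cGy. The groups stood far apart, by 3.71 ± 0.55 (2.06e-09). At 24 hr it was also higher at 300 cGy, by 3.09 ± 0.55 (2.38e-06), and at 450 cGy, by 1.90 ± 0.55 (0.0041), and at no other dose. At 450 cGy and 24 hr the 5 mice fell into 3 with 6.78, 7.34 and 7.42 and 2 with 3.57 and 3.59, and the call was lost without replicate 3 (1.63, 0.0571) or 5 (1.30, 0.138) and in a fit of only the groups compared (0.12). At 168 hr the calls at 600 cGy (1.38, 0.0505) and 800 cGy (1.25, 0.0699) were lost without replicate 1, and that at 600 cGy also without replicate 3 (1.53, 0.053).

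Perp was high only where Alb was, but not wherever Alb was. In the dose-time set 46 of 240 mice had Perp at 5 or more, and each of them had Alb at 13.57 or more. Among the 116 mice with Alb of 10 or more, Perp had a median of 4.43 and a lowest value of 3.13. Among mice with Alb under 10 the highest Perp was 4.32. The 24 hr group at 300 cGy, the highest of that time for Perp, had Alb of 14.04 to 14.50. At 120 and 168 hr the 10 hepatocyte markers all rose with dose (median slopes 0.978 and 0.925, against -0.016 over all genes at both times), and at 600 cGy their mean was 12.69 and 13.44, against 5.34 and 5.40 at 0 cGy. With that list as a covariate the Perp slopes were 0.047 (0.241) and 0.068 (0.0737). Single doses then changed sign, to -0.19 at 600 cGy and 120 hr and to -0.70 and -0.58 at 600 and 800 cGy and 168 hr, none of these passing, while the 1050 cGy difference at 168 hr (1.42, 0.00425) and the 24 hr differences at 300 cGy (1.88, 1.15e-04) and 450 cGy (1.39, 0.0032) still passed. Without the arrays with Alb of 10 or more the 120 hr slope was -0.002 (0.975) and the 168 hr slope 0.116 (0.0373), up to 300 cGy. In that fit the 24 hr difference at 450 cGy was 0.36 (0.487), and none could be had at 300 cGy, where every mouse was left out.

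**Figure D3:**
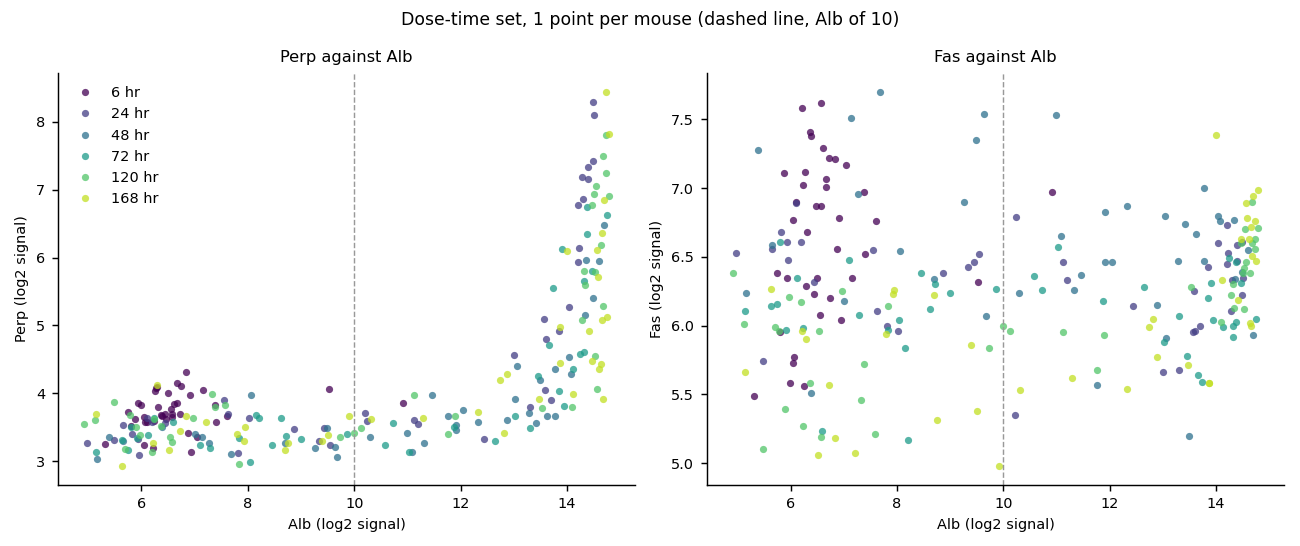
Log2 signal of Perp (left) and Fas (right) against that of Alb, 1 point for each of the 240 mice of the dose-time set, coloured by time in hr. The dashed line marks Alb of 10. Perp stays at 4.32 or less on the left of the line and reaches 8.44 on the right.

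Some members had already changed at the lowest dose of the dose-time set. At 100 cGy and 6 hr Bbc3 and Tnfrsf10b passed, 2 of 5, where 12.5% of all genes rose (3713 genes changed in either direction). At 24 hr Fas (0.69 ± 0.17, adjusted p = 0.00194) and Bbc3 passed, 2 of 5, where 5.60% of all genes rose (838 in either direction). At 48 hr Fas (0.58, 0.00434), Bbc3 (0.92, 8.42e-06) and Pmaip1 (0.83, 0.0228) passed, where 17.9% of all genes rose (4469 in either direction), and at 72 hr Fas (0.47, 0.0431) and Bbc3 (0.74, 4.46e-04), where 9.47% rose (1713 in either direction). At 24 hr and 100 cGy the liver transcripts were at their low level (Alb 4.98 to 7.55). The 0 cGy mice of that time ranged from 5.49 to 13.70, so the 2 groups overlapped. The B cell mean was 8.88, against 9.61 at 0 cGy, the T cell mean was 9.23, against 8.84 at 0 cGy, and the mature neutrophil mean was 10.27, against 8.87 at 0 cGy. Their part in these differences was not tested. The Bbc3 calls were the ones that held at all 4 times in every fit run. Without arrays with Alb of 10 or more the 48 hr calls of Fas (0.36, 0.38) and Pmaip1 (0.47, 0.486) were lost. Without single replicates, Fas lost its call at 24 hr in 1 fit (0.62, 0.0548) and at 72 hr in 4 fits (0.0778 to 0.186), and Pmaip1 lost its 48 hr call in 3 fits (0.0801 to 0.108).

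Over the 48 group means of the dose-time set, in which neighbours in order of level overlapped throughout, Fas ran from 5.34 (200 cGy, 168 hr) to 7.22 (800 cGy, 6 hr) and Bbc3 from 6.26 (0 cGy, 72 hr) to 8.09 (800 cGy, 48 hr). Pmaip1 ran from 4.99 (800 cGy, 168 hr) to 7.26 (800 cGy, 6 hr), so 1 dose held both ends. Tnfrsf10b ran from 4.76 (800 cGy, 120 hr) to 6.09 (1050 cGy, 6 hr) and Perp from 3.26 (0 cGy, 168 hr) to 6.96 (1050 cGy, 168 hr). Across the 48 group means, which share arrays and doses, Pearson's r was 0.57 for Fas with Bbc3, 0.43 for Fas with Pmaip1 and 0.07 for Fas with Tnfrsf10b.

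Over the same 48 means the genes most like each member were taken by Pearson's r. Fas was closest to Socs3 (0.92), a feedback inhibitor of cytokine signalling, Marcksl1 and Dgat1 (0.91 each). Bbc3 was closest to Tnfsf14 and Adcy6 (0.88 each) and Plekho2 (0.87), and Pmaip1 to Rnf34 (0.88), Clec7a, a fungal pattern receptor of myeloid cells, and Tbc1d23 (0.85 each). Tnfrsf10b was closest to Asb10 (0.94), Hbegf and Evpl (0.93 each), and Perp to Eva1a (0.98), Tfpi2 and Mal2 (0.97 each). Eva1a, Tfpi2 and Mal2 were dim like Perp, at the 7.0, 10.1 and 1.7 percentile of the mean levels of all genes.

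Most other p53 targets rose at 6 hr. Of 28 other p53 targets measured, 18 rose and 2 fell with dose at 6 hr, with a median slope of 0.037 against 0.004 over all genes. That is 20 of 28 called, where 34.7% of all genes were. At 24 hr 4 rose and 5 fell (median 0.015, all genes 0.007, 38.7% of all genes called), and at 48 hr 16 rose and 5 fell (0.051, all genes -0.003, 47.3% called). Cdkn1a, the p21 inhibitor of the cell cycle, had a slope of 0.138 ± 0.023 at 6 hr (1.63e-07) and 0.576 ± 0.023 at 168 hr (1.02e-60). Plk2, a stress-induced kinase, rose with 0.090 ± 0.010 at 6 hr (4.14e-14). Sesn1, an antioxidant regulator, fell at 6 hr (-0.140 ± 0.017, 5.23e-12), and so did Rrm2b, a subunit of ribonucleotide reductase (-0.051 ± 0.014, 0.00257). At 168 hr 18 rose and 7 fell (0.062, all genes -0.016, 82.2% called), Phlda3 among the first (0.277, 2.33e-46) and Gadd45a among the second (-0.456, 2.01e-55).

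Genes of the downstream routes changed in both directions. Of 17 genes of the death receptor pathway, 2 rose and 3 fell at 6 hr (median -0.012, all genes 0.004), 5 of 17 called where 34.7% of all genes were. The receptor Tnfrsf1a rose (0.118 ± 0.012, 1.07e-16), while its adaptor Tradd (-0.042, 0.00117) and Casp8, the initiator caspase (-0.044, 0.0151), fell. At 48 hr 4 rose and 6 fell (0.003, all genes -0.003, 47.3% called), Cflar, an inhibitor of caspase-8, rising (0.121, 8.18e-12). At 120 hr 10 rose and 6 fell (0.028, all genes -0.016, 82.4% called), Birc2, an inhibitor of apoptosis, falling (-0.328, 1.34e-37). The numbers called in this list lay near the shares of all genes. Of 16 genes of the BCL2 family and mitochondrial pathway, 9 rose and 1 fell at 6 hr (0.031, all genes 0.004, 34.7% called), with Mcl1, the protective partner of Noxa (0.095, 1.64e-07), and Apaf1, the apoptosome scaffold (0.085, 4.73e-06), among the risen and Cycs, cytochrome c, the one that fell (-0.050, 0.0411). At 48 hr, where 47.3% of all genes were called, this list is represented only by genes picked by p. Of these, Bad and Bak1, which promote death, rose (0.093, 1.72e-15 and 0.116, 7.50e-14) and Bcl2, which protects, fell (-0.048, 8.95e-04). They do not give the direction of the list as a whole.

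Of 16 measured partners of Perp in desmosomes and epithelia, 1 rose at 6 hr, where 34.7% of all genes were called. At 120 hr 10 of them rose and 1 fell (median 0.097, all genes -0.016), 11 of 16 called where 82.4% of all genes were, led by the keratins Krt18 (0.618 ± 0.040, 5.40e-34) and Krt8 (adjusted p = 9.40e-28), which hepatocytes also make. At 168 hr 11 rose and 2 fell (0.073), 13 of 16 where 82.2% of all genes were called, so the list was called no more often than all genes. Pkp1, a desmosomal plaque protein of skin, fell (-0.081, 1.39e-10 at 120 hr). The hepatocyte markers also rose with dose at 120 and 168 hr, in the same mice. The fits with the hepatocyte covariate or without Alb-rich arrays are given for Perp and not for this list. The part of liver transcripts in its rises was not tested.

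In the sex and treatment set the dose trends of Fas, Bbc3 and Pmaip1 were rises in mice given no agent. At 6 hr the trend over 0, 200, 300 and 600 cGy passed for these 3 of 5 genes (19.9% of all genes) and at 24 hr for the same 3 (41.2%). Bbc3 read 7.23, 7.48 and 7.82 (lowest, median and highest of 10) at 600 cGy, against 6.09, 6.42 and 7.21 (of 10) at 0 cGy at 6 hr, without overlap. Its slope was 0.142 ± 0.020 (5.28e-09) at 6 hr and 0.161 ± 0.020 (6.86e-12) at 24 hr. The 6 hr means of Bbc3 over 0, 200, 300 and 600 cGy were 6.49, 7.62, 7.41 and 7.51, so it did not rise further above 200 cGy. Fas rose with 0.205 ± 0.037 (4.46e-06) and 0.128 ± 0.037 (0.00222), and Pmaip1 with 0.208 ± 0.056 (0.00332) and 0.161 ± 0.056 (0.0129, but 0.134 and 0.0821 without replicate 4). In the dose-time set, whose doses also ran above 600 cGy, the 24 hr slopes were -0.005 (Fas), 0.010 (Bbc3) and -0.019 (Pmaip1), none called. Single doses of Fas and Bbc3 did pass there at 24 hr, and none of Pmaip1. The reason why the 24 hr slopes of the sets differed was not tested. The B cell mean at 600 cGy and 6 hr was 7.24 in females and 6.11 in males, against 9.36 and 8.66 at 0 cGy.

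LPS raised Fas without radiation. At 0 cGy Fas read 6.80, 7.64 and 8.60 (lowest, median and highest of 8) with LPS at 6 hr, against 5.52, 6.29 and 6.81 (of 10) without agent. At 24 hr it read 7.16, 7.57 and 8.62 (of 9) with LPS, against 5.79, 6.21 and 6.40 (of 10) without. The groups met at 6 hr and did not overlap at 24 hr, and the differences were 1.49 ± 0.24 (1.76e-07) and 1.48 ± 0.23 (3.80e-08). Pmaip1 rose by 1.96 ± 0.35 at 24 hr (1.75e-06), where it read 7.97, 8.72 and 9.40 (of 9) with LPS, against 5.93, 6.85 and 6.98 (of 10) without, but its 0.60 ± 0.37 at 6 hr did not pass (0.176). Thus 1 of 5 genes was called at 6 hr, where 35.2% of all genes were, and 2 of 5 at 24 hr (21.9%). Bbc3 differed by 0.07 ± 0.13 (0.702) and 0.06 ± 0.13 (0.837). At 24 hr and 0 cGy the B cell mean was 6.90 in females and 7.26 in males with LPS, against 9.45 and 9.59 without agent, and the mature neutrophil mean was 10.82 and 11.86, against 8.77 and 9.01. The part of these cells in the LPS differences was not tested.

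With LPS the dose trend of Bbc3 passed and that of Fas did not. At 6 hr 2 of 5 genes rose with dose (16.4% of all genes rose, and 3985 genes changed in either direction), Bbc3 with 0.127 ± 0.022 (1.50e-06) and Tnfrsf10b with 0.060 ± 0.020 (0.0177, but 0.209 without replicate 3 and 0.143 without replicate 5), and at 24 hr Bbc3 alone (0.116 ± 0.021, 6.23e-06, 1 of 5, where 3.25% of all genes rose and 1617 changed in either direction). The slope of Fas with LPS was 0.006 ± 0.039 at 6 hr. Its means there over 0, 200, 300 and 600 cGy were 7.76, 8.19, 8.10 and 7.82, which is not a straight line. Those of Bbc3 were 6.61, 7.50, 7.39 and 7.45. In the small treatment set, also at 6 hr with LPS, Fas was called higher at 150 cGy (0.90, 0.00643) and 600 cGy (0.66, 0.0124). Both of these calls were lost in some fits without 1 replicate. The difference of slope, LPS minus no agent, was -0.2 ± 0.053 for Fas at 6 hr (0.00861), the only 1 of 5 called, where 6.45% of all genes were. It lost the call without replicate 3 (-0.181, 0.102) and without replicate 5 (-0.179, 0.0743). At 24 hr it was -0.138 ± 0.052 (0.0546, and 0.0361 with the hepatocyte covariate, 0.0429 without dim genes and 0.0496 after quantile normalisation), and 0 of 5 genes passed in limma (1 at an unadjusted p under 0.05), against 16.5% of all genes. For Bbc3 the difference of slope was -0.015 ± 0.030 at 6 hr (0.865) and -0.045 ± 0.029 at 24 hr (0.37), and for Pmaip1 -0.209 ± 0.081 at 6 hr (0.12). At 6 hr with LPS the mature neutrophil mean was 8.92 in females and 9.83 in males at 600 cGy, against 10.60 and 11.43 at 0 cGy. Without agent it was 9.41 in females and 11.84 in males at 600 cGy, against 10.39 and 9.97 at 0 cGy. The part of these cells in the slope difference was not tested.

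No difference between GCSF and no agent passed for any of the 5 genes. The dose trends with GCSF passed for Fas (0.175 ± 0.038, 6.05e-05), Bbc3 (0.116 ± 0.021, 1.57e-06) and Tnfrsf10b (0.058 ± 0.020, 0.00967, but 0.0779 after quantile normalisation and 0.0853 without replicate 4) at 6 hr, 3 of 5 against 52.6% of all genes, and for Fas (0.144, 8.07e-04) and Bbc3 (0.105, 8.80e-06) at 24 hr, 2 of 5 against 30.6%. The 6 hr means of Bbc3 with GCSF were 6.34, 7.75, 7.22 and 7.28 over 0, 200, 300 and 600 cGy, highest at 200 cGy. In limma none of the 5 genes differed from no agent, also at an unadjusted p under 0.05, in slope at 6 hr (0.0161% of all genes) or 24 hr (0.00807%) or in level at 0 cGy at 6 hr (0.00%) or 24 hr (0.549%). The level differences at 0 cGy were 0.07 ± 0.22 for Fas and -0.15 ± 0.12 for Bbc3 at 6 hr. These errors are 1 SE, so differences larger than them could also have gone uncalled.

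**Figure D4:**
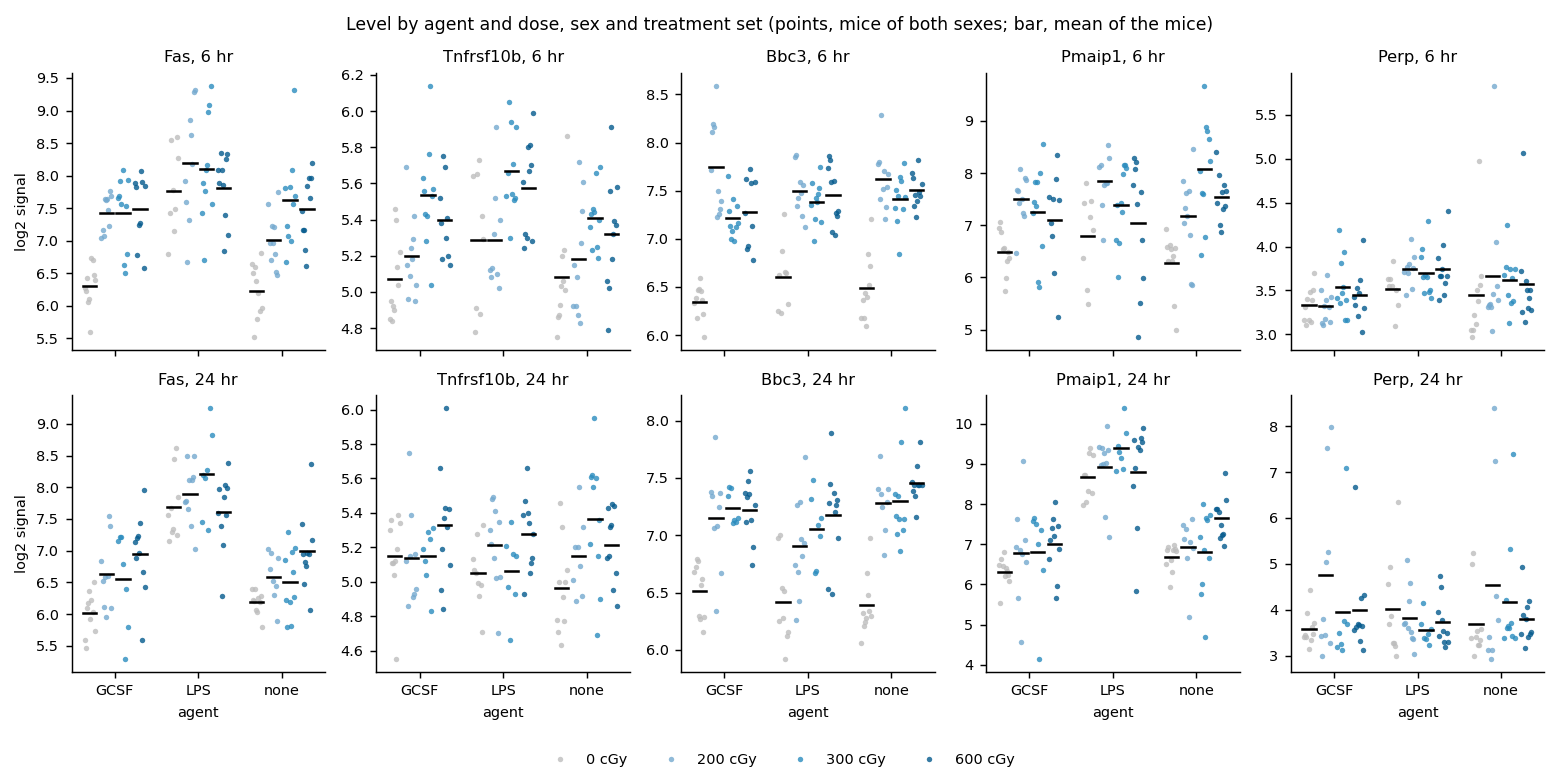
Log2 signal of the 5 genes at 6 hr (top) and 24 hr (bottom) by agent (GCSF, LPS, none) and dose (shades, 0 to 600 cGy) in the sex and treatment set. Points are mice of both sexes and bars their mean. With LPS the 0 cGy mice are already high for Fas (median 7.64 at 6 hr, against 6.29 without agent), while Bbc3 at 0 cGy stays low with every agent.

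Of 20 comparisons between the sexes 1 passed. Female minus male, 1 of 5 genes was called in level at 0 cGy and 6 hr (27.8% of all genes), where Bbc3 read 6.18, 6.36, 6.18, 6.44 and 6.09 in females, against 6.40, 6.84, 6.52, 6.72 and 7.21 in males. The groups overlapped by the lowest male. The difference of -0.49 ± 0.18 (0.0304) was lost without replicate 2 (0.0861), 3 (0.0535) or 5 (0.193), and the hepatocyte mean of these mice was 5.42 in females, against 7.57 in males. In limma no gene was called in slope at 6 hr (1 at an unadjusted p under 0.05, Fas with -0.192 ± 0.073, and 10.3% of all genes called), in slope at 24 hr (0 of 5, 0.00%) or in level at 24 hr (0 of 5, 0.0726%).

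The small treatment set gave the same 3 genes at 6 hr and a lower dose of 150 cGy. Without agent, 150 cGy raised Bbc3 by 1.13 ± 0.17 (5.97e-05), Fas by 0.69 ± 0.19 (0.0264) and Pmaip1 by 0.85 ± 0.26 (0.047), 3 of 5 where 3.83% of all genes passed. At 600 cGy Bbc3, Fas and Pmaip1 rose by 1.52, 1.19 and 1.30 (7.38% of all genes passed). Tnfrsf10b differed by -0.09 ± 0.15 at 150 cGy (0.831) and by 0.09 ± 0.15 at 600 cGy (0.799). The Bbc3 mice read 7.39, 7.44 and 8.06 (lowest, median and highest of 6) at 150 cGy, against 6.46, 7.42, 6.02, 6.81, 6.37 and 5.70 at 0 cGy, the mouse at 7.42 being the 1 with few B cell transcripts. Without it the groups did not overlap and the 150 cGy differences were 1.32 for Bbc3, 0.86 for Fas (8.36e-04) and 0.95 for Pmaip1 (0.0123). The Fas and Pmaip1 calls at 150 cGy were lost in 5 of the 6 fits without 1 replicate. In a fit of only the groups compared all 3 calls were lost (Bbc3 0.204, Fas 0.246, Pmaip1 0.222).

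With GCSF, 150 cGy raised Bbc3 alone (1.56 ± 0.18, 2.36e-07, 1 of 5 against 1.77%), while Fas (0.56, 0.146) and Pmaip1 (0.81, 0.108) did not pass, and 600 cGy raised all 3 (25.0%). With LPS, 150 cGy raised Fas (0.90 ± 0.20, 0.00643) and Pmaip1 (1.09 ± 0.27, 0.0144), 2 of 5 where 1.19% of all genes rose (444 changed in either direction), while Bbc3 differed by 0.45 ± 0.18 (0.165), and 600 cGy raised all 3, where 6.46% rose (1983 in either direction). The 150 cGy calls with LPS were lost without replicate 4 (Fas 0.0768, Pmaip1 0.129) and without replicate 5 (0.0713 and 0.174), the 600 cGy call of Fas was lost without replicate 6 (0.61, 0.0603), and Bbc3 at 150 cGy passed in a fit of only the groups compared (0.036). No difference of the 600 cGy effect between agents passed in limma, with GCSF (0 of 5, also unadjusted, 0.0323% of all genes) or LPS (0 of 5, 1 at an unadjusted p under 0.05, Bbc3 with -0.51 ± 0.25, 3.15%). At 0 cGy LPS again raised Fas. It read 7.79, 8.38, 8.11, 7.98, 8.11 and 8.07 with LPS, against 6.08, 7.22, 6.34, 5.83, 6.28 and 6.49 without agent, without overlap, a difference of 1.70 ± 0.19 (1.38e-09). Pmaip1 rose by 0.82 ± 0.26 (0.0141, but 0.75 and 0.0545 without replicate 4), so that 2 of 5 passed where 26.2% of all genes did. Bbc3 differed by 0.23 ± 0.17 (0.36), and by 0.42 (0.0386) without the mouse that stood apart. GCSF at 0 cGy changed 0 of 5 (also unadjusted, 0.549% of all genes).

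**Figure D5:**
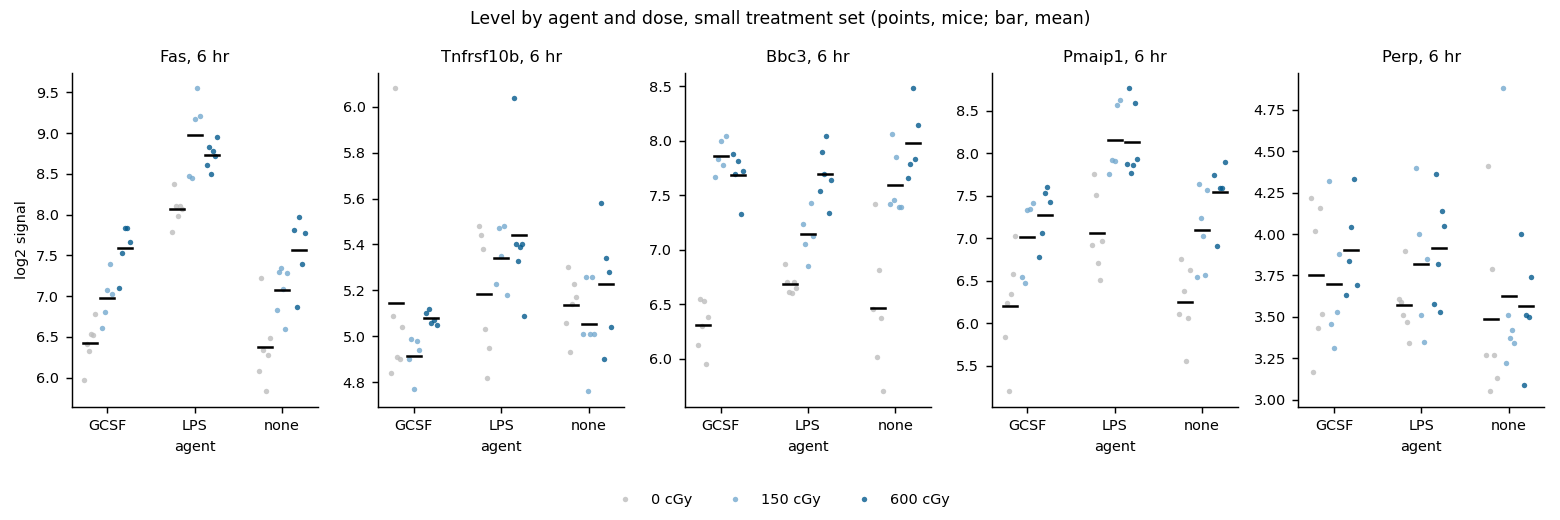
Log2 signal of the 5 genes at 6 hr by agent (GCSF, LPS, none) and dose (shades, 0, 150 and 600 cGy) in the small treatment set. Points are mice and bars group means. The 6 LPS mice at 0 cGy lie between 7.79 and 8.38 for Fas, above all 6 mice at 0 cGy without agent.

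At 168 hr after 150 cGy, in the small 7 day set, limma called none of the 5 genes (also none at an unadjusted p under 0.05), where 67.1% of all genes were called. The differences were -0.38 ± 0.28 for Fas, 0.30 ± 0.16 for Tnfrsf10b, 0.35 ± 0.17 for Bbc3, -0.81 ± 0.46 for Pmaip1 and 0.24 ± 0.12 for Perp. Pmaip1 read 4.18, 6.67 and 7.38 (lowest, median and highest of 10) at 150 cGy, against 7.45, 6.90 and 7.11 at 0 cGy. Its mouse at 4.18 is the 1 with the highest Tnfrsf10b (5.93, against 4.91 to 5.28 in the other 9). The set has only 3 control mice at that time.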

How the data were processed

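Whole-blood RNA of 534 mice (536 arrays) had been globin-reduced and hybridised to the Mouse 430A 2.0 array. The deposited values are log2 signals made with RMA in affy, per the submitters' processing notes. Whether the 4 sets were normalised together is not given in the sources used here. Of 22690 probe sets, 20380 named 1 gene, and the brightest of each gene was kept (12393 genes). The 2 repeat scans were averaged with their first scan. A group-means model was fitted per set with limma 3.58.1 in R 4.3.3, with mean differences and slopes as contrasts, Benjamini-Hochberg adjustment over all genes and a threshold of 0.05, and tested on simulated data. Figures were drawn with matplotlib 3.10.9 from values handled with pandas 2.3.3 and numpy 2.4.6 (Python 3.11.15). The share of all genes called counts both directions, except for single comparisons at 100 cGy and for dose effects within LPS, where it counts rises alone and the number called in either direction stands beside it. That choice was made after the values were seen. The members and lists were chosen with earlier results of these data known. Named besides the members are, for each, the 3 genes with the highest Pearson r, up to 2 risen and 2 fallen genes per list by p, and Alb. Same-numbered mice did not deviate together (mean r 0.02, 0.04, 0.06 and -0.13 in the 4 sets), so numbers were not taken to pair mice. Alternatives varied probe set, normalisation, dose scale, prior, groups fitted, blocks and mice left out. The number of arrays limits the precision.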

Additional observations from a re-analysis of the deposited data

Results flagged for a closer look

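Single mice stood apart from their group in 31 of 515 combinations of group and gene (6.02%), where chance gives about 1 in 20. Perp had 13 of these, Tnfrsf10b 6, and Fas, Bbc3 and Pmaip1 4 each. In the dose-time set Perp read 3.35 (450 cGy, 6 hr) and 3.20 (800 cGy, 6 hr) in low mice, and 7.19 (600 cGy, 24 hr), 4.80 (1050 cGy, 24 hr), 5.95 (600 cGy, 48 hr) and 5.16 (1050 cGy, 48 hr) in high mice, all 4 with Alb of 13.61 to 14.60. In the sex and treatment set Perp was high at 4.29 (male, LPS, 300 cGy, 6 hr), 4.97 (male, no agent, 0 cGy, 6 hr), 5.83 (male, no agent, 200 cGy, 6 hr), 6.68 (female, GCSF, 600 cGy, 24 hr) and 6.35 (male, LPS, 0 cGy, 24 hr), and low at 3.04 (female, no agent, 200 cGy, 6 hr). In the small treatment set it was 4.88 without agent at 150 cGy.

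Tnfrsf10b stood apart at 4.94 (100 cGy, 24 hr) and 5.63 (200 cGy, 48 hr) in the dose-time set, at 5.86 (male, no agent, 0 cGy, 6 hr), at 5.93 in the small 7 day set (150 cGy), and at 6.08 (GCSF, 0 cGy) and 6.04 (LPS, 600 cGy) in the small treatment set. Bbc3 did so at 7.48 (450 cGy, 48 hr), 6.28 (100 cGy, 120 hr), 6.30 (female, GCSF, 0 cGy, 24 hr) and 6.87 (LPS, 0 cGy, small treatment set). Fas did so at 5.96 (100 cGy, 120 hr), 5.52 (female, no agent, 0 cGy, 6 hr), 6.79 (female, GCSF, 300 cGy, 24 hr) and 7.45 (female, LPS, 300 cGy, 24 hr). Pmaip1 did so at 6.09 (800 cGy, 168 hr), 7.25 (male, LPS, 300 cGy, 6 hr), 5.54 (female, GCSF, 0 cGy, 24 hr) and 6.32 (male, no agent, 0 cGy, 24 hr).

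The dose trend differed between the 6 times for each gene, with a moderated F of 16.39 for Fas, 12.45 for Tnfrsf10b, 15.16 for Bbc3, 15.19 for Pmaip1 and 18.98 for Perp. The dose slope of Fas at 6 hr differed between LPS and no agent by -0.2 per 100 cGy.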

How the results depend on the processing

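Results changed most with the liver transcripts. Without arrays with Alb of 10 or more, which leaves 0 to 300 cGy at 120 and 168 hr, 23 of 35 values kept direction and call, the trend differed between times for 3 of 5 genes in place of 5, and slopes turned to -0.265 for Fas at 168 hr, -0.002 for Perp at 120 hr, and 0.066 and 0.144 for Tnfrsf10b at 120 and 168 hr. With the hepatocyte list as a covariate, chosen after seeing the data, Perp turned to -0.19 (600 cGy, 120 hr), -0.70 (600 cGy, 168 hr) and -0.58 (800 cGy, 168 hr). In the small 7 day set the 0 calls became 1 with the mean of the probe sets, with quantile normalisation and with a trended and robust prior, 2 with median centring, and 0 to 1 without single replicates. The 1 call between the sexes became 2 with only the groups compared and 0 to 1 without single replicates, and the 2 agent calls of the small treatment set became 3 with mouse number as a replicate block and without the 0 cGy mouse low in B cell genes, and 1 to 2 without single replicates. The causes of these changes were not tested, and the Alb setting leaves out liver-rich arrays and high doses at once.

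With mouse number as a replicate block 177 of 180 values kept their call. Bbc3 with LPS at 0 cGy in the small treatment set (0.43, adjusted p = 0.0493) and the Fas slope difference of LPS at 24 hr (-0.168, 0.0449) gained it, and Tnfrsf10b at 168 hr (-0.026, 0.0535) lost it. The run block changed 0 of 125 values.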
